A study of Mus musculus with 10 samples.

Results

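The proteasome is the large protease complex that degrades proteins marked with ubiquitin. Its transcripts were taken as all rows of the deposited gene tables whose symbol starts with Psm, followed by a letter from a to g and a number. The rule found 50 of 35087 gene rows: 19 for the 20S core (Psma and Psmb), 20 for the 19S cap (Psmc and Psmd), 5 for activators (Psme), 1 inhibitor (Psmf1), 4 assembly chaperones (Psmg) and Psmc3ip, a meiotic recombination factor that shares only the start of the name. In all, 48 had enough reads to be tested; Psmb11 and Psme2b did not. The libraries came from granulosa cells, the somatic cells around the oocyte, cut from mouse ovaries by laser and amplified with the low-input GEO-seq protocol. All mice were wild-type C57B6/J females aged 3 weeks, and all libraries carry batch label 1. One group of 4 libraries came from mice given intraperitoneal N-acetyl-L-cysteine (NAC, a cysteine donor and antioxidant) at 150 mg/kg for 3 consecutive days, and 6 came from mice given saline; ovaries were taken on day 4. The labels do not tie libraries to animals, so p-values measure the spread between captured libraries and are too small if libraries share an animal.

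In the proteasome, alpha and beta rings form the barrel-shaped core, and the active sites lie on beta subunits inside it. The cap binds ubiquitin chains, and its ring of ATPases unfolds the substrate and threads it into the barrel. Inducible beta subunits replace the constitutive catalytic ones in immune cells and after interferon, and activators of the PA28 and PA200 kinds can take the place of the cap. The transcription factors NRF1 of the Nfe2l1 gene and NRF2 of the Nfe2l2 gene are known to drive proteasome genes.

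Estimated reads per library were 1295412, 509945, 116461 and 1667181 in NAC 1 to 4, and 1340324 to 2488408 in saline. The share of the 10945 tested genes with reads was 84.8% in NAC 2 and 85.1% in NAC 3, and lay between 97.7% and 99.5% elsewhere. At these depths 1 read is worth 8.05 CPM (reads of a gene relative to the TMM-scaled library size) in NAC 3, 2.05 in NAC 2 and 0.445 to 0.721 in the others. The 12 granulosa markers, Inha among them, were detected in every group and summed to 8357 to 22956 CPM in NAC and 14071 to 42757 in saline; 5 of the 12 had an unadjusted edgeR p under 0.05, all with lower values in NAC. With higher values in NAC at that p were 3 of 3 tested endothelial, 2 of 7 stroma, 1 of 4 theca and 1 of 4 smooth muscle markers. None of these markers passed edgeR's test. Of other cell types, the 12 oocyte markers summed to 182 to 1336 CPM in NAC and 1.33 to 1726 in saline (Figla was at 0 in all NAC libraries), the 7 stroma markers to 64.4 to 1808 and 83.1 to 934, the 5 theca markers to 129 to 283 and 40.6 to 226, and the 4 smooth muscle markers to 8.05 to 549 and 4.96 to 297. The 5 endothelial markers summed to 48.3 to 162 CPM in NAC and 8.11 to 38.7 in saline, without overlap. The 7 immune markers stayed at or under 22.5 CPM in both groups, and the 2 epithelial markers summed to 10.2 to 57.7 in NAC and 19.3 to 70.3 in saline. NAC 2 had the lowest granulosa sum and the highest stroma (1808), smooth muscle (549) and endothelial (162) sums. The part of these cell types in the proteasome values was not tested. An oocyte score was tried as a covariate, with 0 members called, but 0 were called without it too, so that count cannot show its part. Members at an unadjusted edgeR p under 0.05 were 12 without the score (all genes 1769 of 10945) and 7 with it. The share of all genes with the score is not given here, so these counts cannot show its part either. In such bulk libraries, fewer cells of a type and less RNA per cell cannot be told apart.

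Upstream sequences are shown for 6 members to show the ETS and NRF1 motifs, each of which was found in a larger share of member windows than of all windows. So were the interferon-related motif and, by a small margin, the antioxidant response element, which are given below but not shown. Promoter windows of 300 bases in RefSeq's GRCm38.p6 table matched 42 of the 50 genes, with 45 windows. Stretches are printed on the gene's strand, 5′ to 3′, and end upstream of any annotated exon. Capitals mark the ETS motif CCGGAAG (or its reverse complement) in Psmd2 (chr16:20651472-20651651, plus strand), Psmd11 (chr11:80428435-80428614, plus strand) and Psmc6 (chr14:45329608-45329787, plus strand). They mark the NRF1 motif (GCGC, any base, TGCGC, or its reverse complement), of the nuclear respiratory factor and not of the Nfe2l1 product, in Psma3 (chr12:70974441-70974620, plus strand), Psmc4 (chr7:28050102-28050281, minus strand) and Psmc5 (chr11:106256080-106256153, plus strand).
Psmd2: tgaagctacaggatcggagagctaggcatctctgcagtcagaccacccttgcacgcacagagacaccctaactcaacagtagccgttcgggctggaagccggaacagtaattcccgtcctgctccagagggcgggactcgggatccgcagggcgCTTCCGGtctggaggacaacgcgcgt
Psmd11: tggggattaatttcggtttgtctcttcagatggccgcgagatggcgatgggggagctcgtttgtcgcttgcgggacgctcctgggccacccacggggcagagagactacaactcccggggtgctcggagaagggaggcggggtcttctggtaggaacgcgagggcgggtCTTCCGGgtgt
Psmc6: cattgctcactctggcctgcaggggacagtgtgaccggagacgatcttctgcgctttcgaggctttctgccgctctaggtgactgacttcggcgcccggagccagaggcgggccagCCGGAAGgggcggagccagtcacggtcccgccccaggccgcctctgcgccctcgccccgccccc
Psma3: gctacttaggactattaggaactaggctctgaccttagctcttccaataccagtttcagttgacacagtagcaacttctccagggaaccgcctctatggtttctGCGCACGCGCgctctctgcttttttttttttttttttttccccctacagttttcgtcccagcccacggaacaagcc
Psmc4: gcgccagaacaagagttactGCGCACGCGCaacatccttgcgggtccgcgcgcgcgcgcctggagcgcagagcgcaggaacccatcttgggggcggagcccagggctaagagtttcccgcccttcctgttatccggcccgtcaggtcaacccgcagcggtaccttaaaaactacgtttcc
Psmc5: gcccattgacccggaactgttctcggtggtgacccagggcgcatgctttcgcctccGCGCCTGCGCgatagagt

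The ETS motif was found, on either strand, in 16 of the 45 member windows (35.6%), against 8.86% of all 32851 windows of that length. By gene it was in 9 of 17 cap genes and in 1 of 15 core genes with a window. The NRF1 motif was in 7 windows (15.6%, against 4.60%). The other motifs searched were the antioxidant response element TGACNNNGC with 6 windows (13.3%, against 12.4%), CCAAT with 15 (33.3%, against 37.4%), TATAAA with 4 (8.89%, against 13.6%), the interferon-related GAAA, any 2 bases, GAAA with 5 (11.1%, against 3.44%) and the STAT-related TTCNNNGAA with 3 (6.67%, against 8.30%). A match describes these letters only and was not tested for binding or function. Close neighbours in the genome, within 20000 bases, were Psmb5 with Psmb11 and Psme1 with Psme2 on chromosome 14, and Psmb8 with Psmb9 on chromosome 17.

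In saline granulosa cells, 6 of the 7 constitutive beta genes and Psma7 had the highest levels per unit of length; Psmb7 stood lower, at 237 ± 45.8 TPM. On the deposited TPM scale, Psmb6, which carries the caspase-like active site, stood at 1228 ± 284 (SD, n = 6) and Psma7, an alpha ring subunit, at 1073 ± 176; these levels overlapped within their spread. Psmb3, a structural beta subunit, followed at 735 ± 187, and Psmb1, Psmb2, Psmb5 and Psmb4 stood at 541 to 455 without separating beyond their SDs. Of the other alpha subunits, all but Psma8 lay at 234 (Psma5) to 298 (Psma1). The cap ran from 340 ± 54.1 for the ATPase gene Psmc3 and 328 ± 57.1 for the ubiquitin receptor gene Psmd4 down to 13.2 ± 2.77 for Psmd10, a cap assembly chaperone also called gankyrin. Psma8, the alpha subunit of the testis proteasome, was listed at 3.53 ± 4.63 and Psmb11, the thymus-specific beta subunit, at 0.322 ± 0.506. Excluding Psma8 and the inducible and thymus-specific genes, the highest over the lowest core subunit was 4.74 to 8.63 in the saline libraries, 6.57, 5.96 and 4.91 in NAC 1, 3 and 4, and 18.6 in NAC 2.

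**Figure D1:**
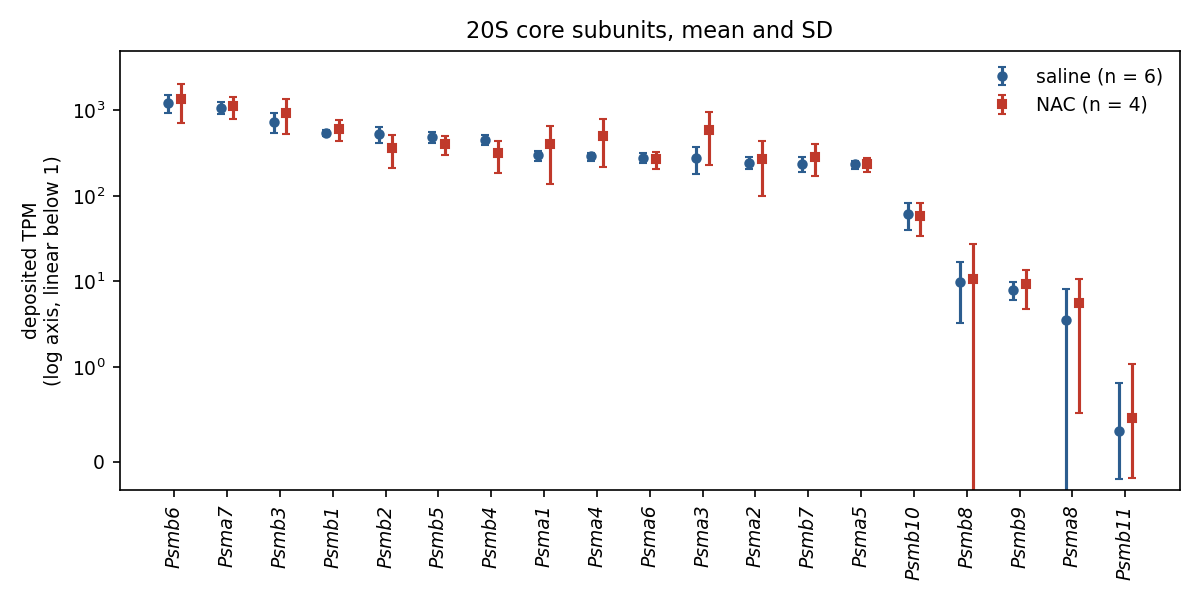
Deposited TPM of the 19 core genes (vertical log axis, linear below 1), as mean and SD of 6 saline (circles) and 4 NAC (squares) libraries, ordered by the saline mean; bars that reach below 0 are cut at the axis. Psmb6 and Psma7 lead, and Psmb10, Psmb8, Psmb9, Psma8 and Psmb11 lie below all other core genes.

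Comparing NAC with saline asked how the antioxidant alters these transcripts. No member passed edgeR's quasi-likelihood test (0 of 48 called; all genes 0.0731%), and the smallest member adjusted p was 0.140. At an unadjusted p under 0.05, 9 members had lower values in NAC, where 8.34% of all tested genes did, and 3 had higher values, where 7.82% did. By DESeq2 1 member was called, with lower values in NAC (all genes 3.96%), and by limma on log2(TPM + 1) 0 were. By limma-voom with sample quality weights 3 were, all with lower values (all genes 4.35%). That fit gave NAC 2 the lowest weight of all libraries (0.245) and NAC 3, the shallowest, the highest (2.226). The 3 called members were Psmc1, Psmd2 and Psmd13. In each, NAC 3 was the highest NAC library (282, 306 and 121 CPM) and lay inside the saline range. How far the calls depend on the weights was not tested. Log2 folds of NAC over saline were negative in 34 of 48 members, or 70.8%, against 49.0% of all genes, with a median of -0.17 against 0.02. Without NAC 2 the negative values numbered 41 of 48 (all genes 50.3%), the median was -0.41, and 14 members had an unadjusted p under 0.05, all lower in NAC (all genes 9.30%), with 0 called. Without NAC 2 and NAC 3, 42 of 48 were negative with a median of -0.45. Without saline 4 the median was -0.26. With library size alone as the scaling, the median was -0.02, when that of all genes was 0.19. In simulated data of this design, over all tested genes, edgeR's test recovered 3% of genes changed by 1 on the log2 scale. It recovered 33% of those changed by 2. These shares were not worked out for genes at the members' read levels, so what was detectable among the members was not tested.

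**Figure D2:**
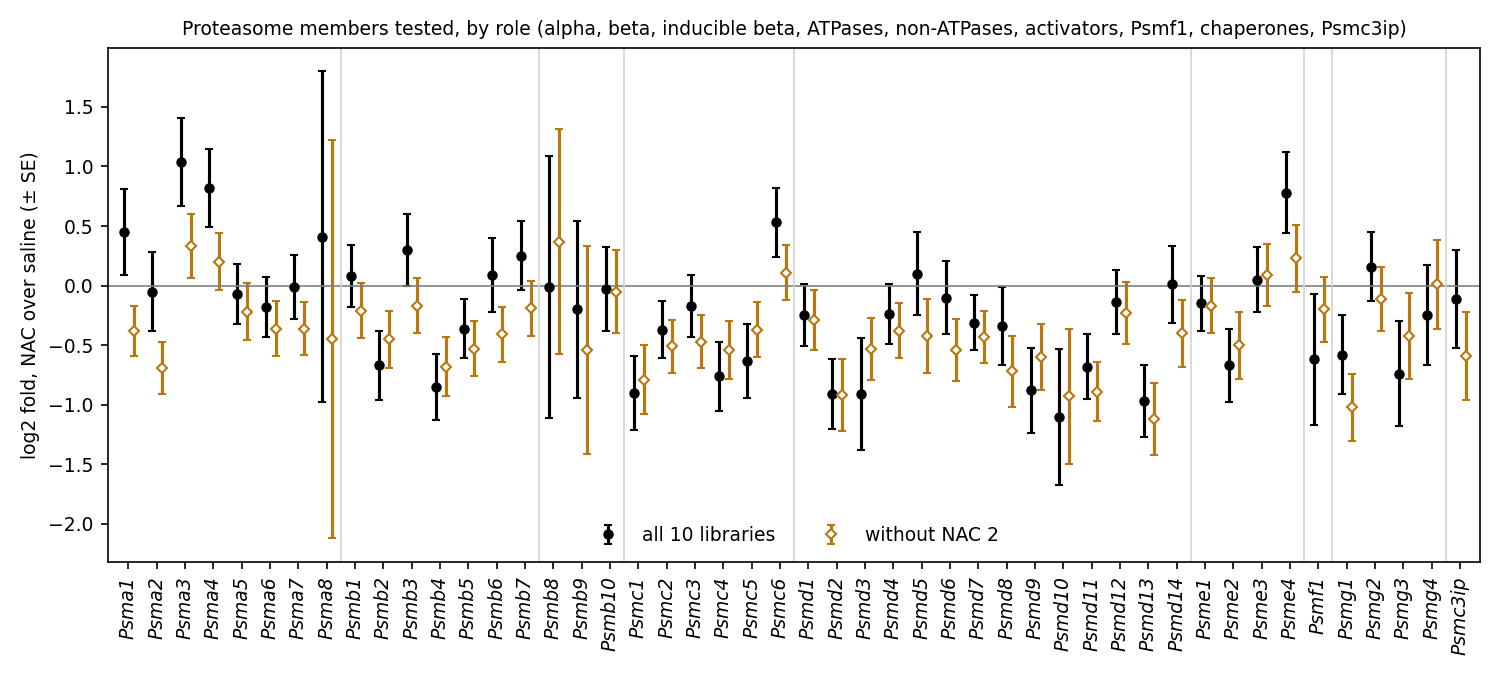
Log2 fold of NAC over saline with its standard error (vertical axis) for the 48 tested members by role, with all 10 libraries (filled circles) and without NAC 2 (open diamonds). The cap genes sit mostly below 0 in both, with 17 and 19 of 20 negative, and the core genes move from 10 to 15 of 18 negative when NAC 2 is left out.

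Values of the cap were mostly lower in NAC; whether it differed from the other roles was not tested. Of its 20 genes, 17 had negative log2 folds (all genes 49.0%) with a median of -0.36, and 6 had an unadjusted p under 0.05, all lower in NAC (all genes 8.34%). Without NAC 2, 19 of 20 were negative (all genes 50.3%) with a median of -0.52, and 10 had an unadjusted p under 0.05, all lower in NAC (all genes 9.30%). The median was -0.33 with RLE factors, -0.20 with library size alone, -0.27 on log2(TPM + 1) and -0.44 once offsets took up trends with GC content and length.

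Psmd13, a subunit of the cap's lid (GRCm38 chromosome 7, 140881968 to 140898643), had 56.3, 98.3, 121 and 73.0 CPM in NAC 1 to 4, and 118, 172 and 200 as the lowest, median and highest saline values. In 3 of 4 NAC libraries it lay below every saline library. Its log2 fold was -0.97 (SE 0.30; adjusted p = 0.140 by edgeR) and -1.12 without NAC 2 (SE 0.30; adjusted p = 0.0885 by edgeR). DESeq2 gave it an adjusted p of 0.0374 and limma-voom one of 0.0248. Its transcript shares 329 bases with a transcript of its neighbour Sirt3, and the strand setting of the counting is not given in the sources used here, so its reads and those of Sirt3 could not be fully separated.

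Psmd2, the cap's large scaffold and ubiquitin docking subunit (chromosome 16, 20651652 to 20663414), whose upstream stretch is printed above, had 183, 205, 306 and 187 CPM in NAC and 223, 447 and 503 as the lowest, median and highest in saline. NAC 3 fell within the saline range and the other 3 lay below it. The log2 fold was -0.91 (SE 0.29; adjusted p = 0.155 by edgeR; limma-voom adjusted p = 0.0338). Psmd11, a lid subunit (chromosome 11, 80428615 to 80473248), had 160, 231, 169 and 124 CPM in NAC and 194, 276 and 352 in saline. Only NAC 2 lay inside the saline range; the log2 fold was -0.68 (SE 0.27; adjusted p = 0.232 by edgeR) and -0.89 without NAC 2 (SE 0.25). Psmd9, a chaperone of cap assembly despite its name (chromosome 5, 123169413 to 123250131), had 53.4, 14.3, 40.3 and 57.5 CPM in NAC and 62.0, 74.3 and 98.7 in saline. All 4 NAC values lay below all saline values, and the log2 fold was -0.88 (SE 0.36; adjusted p = 0.245 by edgeR) or -0.60 without NAC 2 (SE 0.28).

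Among the 6 ATPases, 5 had negative values, with a median of -0.50. Psmc1, an ATPase that takes part in opening the core's gate (chromosome 12, 100110154 to 100123405), had 110, 100, 282 and 151 CPM in NAC and 235, 281 and 375 in saline. NAC 3, where 1 read is worth 8.05 CPM, was the only NAC library inside the saline range; the log2 fold was -0.90 (SE 0.31; adjusted p = 0.181 by edgeR; limma-voom adjusted p = 0.0488). Psmc4 (chromosome 7, 28041707 to 28050101) had 162, 81.9, 201 and 234 CPM in NAC and 235, 291 and 338 in saline. The groups did not overlap, by the narrow margin of NAC 4 to the lowest saline library, and the log2 fold was -0.76 (SE 0.29; adjusted p = 0.226 by edgeR). Psmc5 had 229, 69.6, 274 and 166 CPM in NAC and 232, 286 and 297 in saline, with a log2 fold of -0.63 (SE 0.31) and of -0.37 without NAC 2. Psmc6 was the ATPase gene with a positive value: it had 134, 434, 242 and 216 CPM in NAC and 155, 180 and 186 in saline. Its log2 fold was 0.53 (SE 0.29; adjusted p = 0.370 by edgeR), 0.11 without NAC 2 and -0.15 with GC and length offsets.

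Among the other 10 non-ATPase genes of the cap, log2 folds ran from -1.10 for Psmd10 (SE 0.57) to 0.10 for Psmd5 (SE 0.35), both assembly chaperones by function. Without NAC 2 these folds were -0.93 and -0.42. Psmd10 was near the floor, with 32 reads over all NAC libraries and 8.05 CPM, or 1 read, in NAC 3. Psmd14, the deubiquitinating subunit, stood at 0.01 (SE 0.32), and at -0.40 without NAC 2 (SE 0.28). Psmd4 stood at -0.24 (SE 0.25), and at -0.38 without NAC 2. Psmd3, a lid subunit, had 10.2 CPM in NAC 2 against 121 to 204 in the other NAC libraries and 154 to 290 in saline. Its log2 fold was -0.91 (SE 0.47), and -0.53 without NAC 2.

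The groups did not overlap, with every NAC library below every saline library, for 3 tested members, Psmb4, Psmc4 and Psmd9 (all genes 3.43%). Without NAC 2 this held for 10 members (all genes 5.34%): those 3 with Psma1, Psma2, Psma7, Psmc3, Psmd7, Psmd11 and Psmg1. A smaller group separates more readily, among genes at large too: the count was 4 without NAC 1 (all genes 7.46%), where 1 further member lay wholly above saline, 7 without NAC 3 (4.89%), 7 without NAC 4 (5.98%), 5 without saline 1 (5.34%), 6 without saline 2 (5.21%) and 5 without saline 4 (3.80%). Without NAC 2 and NAC 3 it was 19 (9.43%). With library size alone it was 1 (2.18%), and on the TPM scale 0 (2.34%).

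**Figure D3:**
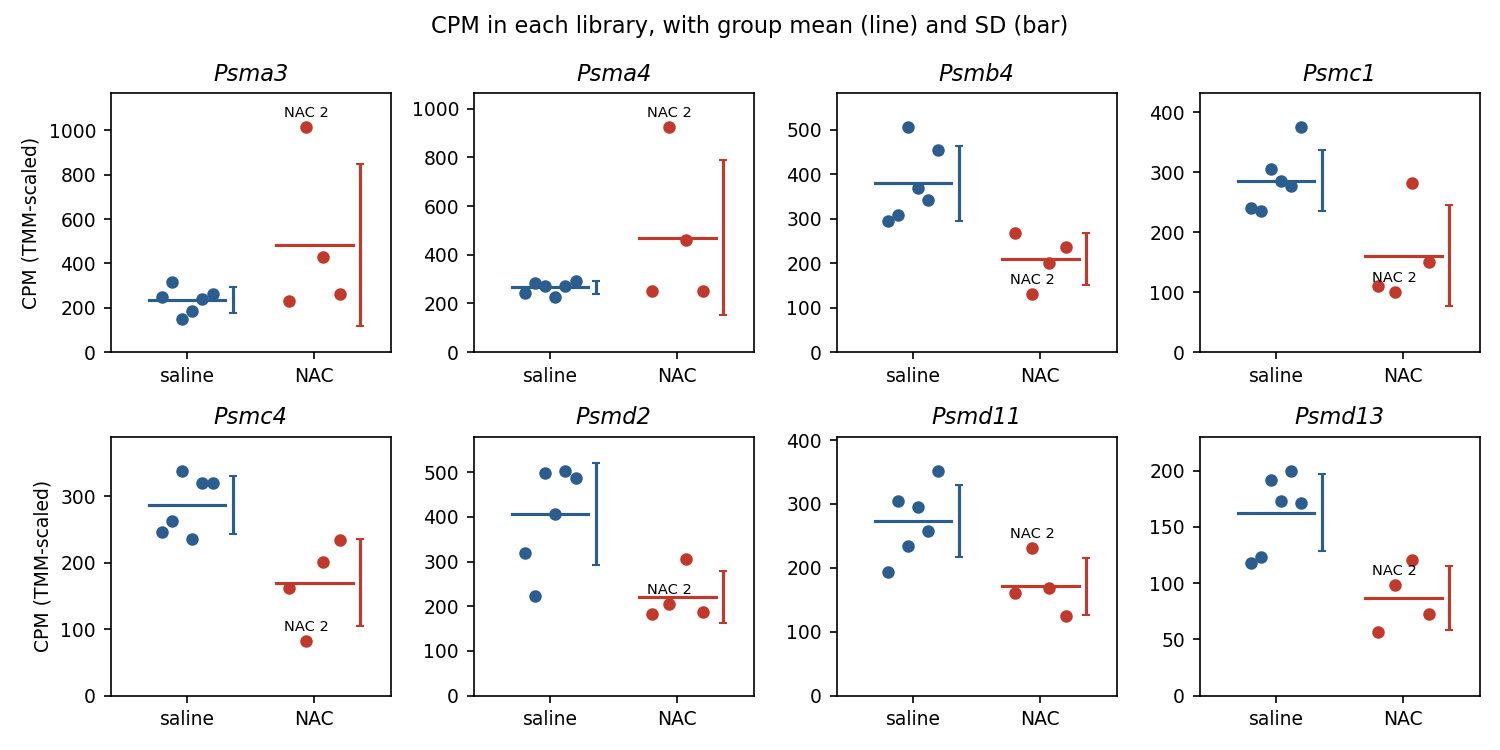
CPM in each library (vertical axis, from 0) for 8 members, with saline (6 points) on the left and NAC (4 points) on the right of each panel, the group mean as a line and the SD as a bar. NAC 2 is the highest point for Psma3 (1014) and Psma4 (924) and the lowest for Psmb4 (131) and Psmc4 (81.9).

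The core genes were divided, and their values moved most with NAC 2. Of 18 tested core genes 10 had negative log2 folds with a median of -0.01; without NAC 2, 15 were negative with a median of -0.36. The 8 alpha genes had a median of 0.20, with 4 negative, and -0.36 without NAC 2, with 6 negative. That alpha median was small and crossed 0 in other cases too: it was -0.05, -0.02, -0.02 and -0.01 without saline 1, saline 2, saline 3 and saline 5, and 0.02, 0.07 and 0.03 without NAC 3, saline 4 and saline 6. The 7 constitutive beta genes had a median of 0.08 with 3 negative, and -0.41 with 7 negative when NAC 2 was left out; it was -0.03 without NAC 3 and -0.05 without saline 4, and 0.01 to 0.04 without saline 1, 2, 3, 5 or 6.

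Psma3, an alpha ring subunit (chromosome 12, 70974621 to 70996347), had 230, 1014, 427 and 260 CPM in NAC and 151, 244 and 316 as the lowest, median and highest in saline. NAC 2 and NAC 3 lay above the saline range and the other 2 inside it. The log2 fold was 1.04 (SE 0.37; adjusted p = 0.195 by edgeR) and 0.33 without NAC 2 (SE 0.27). A processed pseudogene, Gm13835, is 100% identical to Psma3 over 665 bases and was assigned 158 reads in NAC and 1275 in saline, so the split between them is uncertain. With the near-identical copies summed, an alternative chosen after seeing the data, the Psma3 sum had a mean ± SD of 508 ± 346 CPM with NAC (n = 4) and of 336 ± 61.4 with saline (n = 6), which gave a log2 fold of 0.59.

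Psma4, also of the alpha ring (chromosome 9, 54950790 to 54958030), had 250, 924, 459 and 250 CPM in NAC and 228, 272 and 294 in saline. The log2 fold was 0.82 (SE 0.33; adjusted p = 0.244 by edgeR) and 0.20 without NAC 2 (SE 0.24). Psma1 had 202, 827, 226 and 202 CPM in NAC against 247, 269 and 292 in saline. Its NAC 2 value was above all saline libraries and its other 3 were below them, so the log2 fold of 0.45 (SE 0.36) became -0.38 without NAC 2 (SE 0.21). Psma6 had 138, 258, 226 and 193 CPM in NAC and 206, 221 and 267 in saline, with a log2 fold of -0.18 (SE 0.25) and -0.36 without NAC 2.

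Psmb4, a structural beta subunit (chromosome 3, 94884093 to 94886961), had 268, 131, 201 and 236 CPM in NAC and 296, 356 and 506 in saline. All NAC values lay below all saline values, with a log2 fold of -0.85 (SE 0.28; adjusted p = 0.160 by edgeR) and -0.68 without NAC 2 (SE 0.25). Psmb2, a structural subunit of the beta ring, had 219, 106, 242 and 282 CPM in NAC and 261, 345 and 417 in saline; its log2 fold was -0.67 (SE 0.29) and -0.45 without NAC 2. Psmb3 had 359, 885, 346 and 361 CPM in NAC and 297, 389 and 501 in saline; its log2 fold of 0.30 (SE 0.30) became -0.17 without NAC 2.

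The 3 constitutive catalytic subunits had NAC values on both sides of the saline medians. Psmb5, with the chymotrypsin-like site, had 289, 342, 169 and 219 CPM in NAC and 279, 334 and 380 in saline (log2 fold -0.36 ± 0.25 SE). Psmb6 had 623, 1356, 507 and 448 CPM in NAC and 525, 665 and 832 in saline (log2 fold 0.09 ± 0.31 SE; -0.41 without NAC 2). Psmb7, with the trypsin-like site, had 174, 453, 266 and 169 CPM in NAC and 185, 223 and 248 in saline (log2 fold 0.25 ± 0.29 SE; -0.19 without NAC 2). For Psmb6, NAC 2 was above all saline libraries, NAC 3 and NAC 4 were below them and NAC 1 was inside their range. For Psmb7, NAC 2 and NAC 3 were above all saline libraries and NAC 1 and NAC 4 below them.

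The inducible counterparts were rare. Psmb10 had 52.7, 47.1, 24.2 and 45.1 CPM in NAC and 30.8, 42.2 and 69.4 in saline, with a log2 fold of -0.03 (SE 0.35). Psmb9 had 3.61 to 10.2 CPM in NAC and 2.67 to 11.3 in saline (log2 fold -0.20 ± 0.74 SE). Psmb8 had 10.8 and 23.1 CPM in NAC 1 and NAC 4, 0 reads in NAC 2 and NAC 3, and 0 to 20.0 CPM in saline (log2 fold -0.01 ± 1.10 SE); a count of 0 allows up to 6.14 CPM in NAC 2 and 24.2 in NAC 3. These 3 genes together had 6.18%, 2.67%, 3.42% and 8.80% of the reads of Psmb5 to Psmb7 in NAC 1 to 4, and 3.24% to 6.68% in saline, so the groups overlapped. The NAC 3 share rests on 4 reads and the NAC 2 share on 28.

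Activators had log2 folds of both signs, and whether they differed from each other was not tested. Psme1 and Psme2 encode the PA28 subunits that form 1 ring together. Psme1 had 323, 268, 217 and 228 CPM in NAC and 261, 273 and 340 in saline (log2 fold -0.15 ± 0.23 SE). Psme2 had 119, 75.8, 113 and 171 CPM in NAC and 145, 177 and 320 in saline (log2 fold -0.67 ± 0.31 SE; adjusted p = 0.295 by edgeR; -0.50 without NAC 2). In all, 3 NAC libraries lay below the saline range for Psme2 and 2 for Psme1, and the ratio of Psme1 to Psme2 was 1.34 to 3.54 in NAC and 1.06 to 2.29 in saline. Psme2b, a copy 99.4% identical to Psme2 over 794 bases, had 2 reads in NAC and 53 in saline; with it summed, the log2 fold of Psme2 was -0.70. Psme3, the nuclear PA28 gamma, had 94.2 to 121 CPM in NAC and 61.3 to 130 in saline (log2 fold 0.05 ± 0.27 SE). Psme4, which encodes PA200, had 72.1, 211, 64.4 and 84.3 CPM in NAC and 47.1, 68.4 and 76.2 in saline. NAC 2 and NAC 4 lay above the saline range; the log2 fold was 0.78 (SE 0.34; adjusted p = 0.270 by edgeR) and 0.23 without NAC 2 (SE 0.28).

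Psmf1, which encodes the core-binding protein PI31, had 80.1, 0, 48.3 and 57.5 CPM in NAC and 67.3, 72.3 and 84.5 in saline. Its 0 reads in NAC 2 allow up to 6.14 CPM, below every saline library, and the log2 fold was -0.62 (SE 0.55) or -0.20 without NAC 2; without NAC 1 it was -1.10. Of the chaperones that build the alpha ring, Psmg1 had 51.2, 115, 32.2 and 50.5 CPM in NAC and 67.2, 98.1 and 112 in saline. NAC 2 lay above and the other 3 below the saline range, so its log2 fold was -0.58 (SE 0.33) and -1.02 without NAC 2 (SE 0.28; adjusted p = 0.0976 by edgeR). Its partner Psmg2 had 77.2, 135, 96.7 and 70.4 CPM in NAC and 70.7, 76.6 and 119 in saline (log2 fold 0.16 ± 0.29 SE; -0.11 without NAC 2). Psmg3 and Psmg4, the other chaperone pair, had log2 folds of -0.74 (SE 0.44) and -0.25 (SE 0.42); without NAC 2 they were -0.42 and 0.01, and in NAC 3 each rested on a value of 8.05 CPM, or 1 read. Psmc3ip, the name match, had 28.1, 73.7, 16.1 and 33.8 CPM in NAC and 24.9, 41.7 and 58.2 in saline (log2 fold -0.11 ± 0.41 SE; -0.59 without NAC 2), and it shares 385 bases with a transcript of Mlx.

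The alpha share of the proteasome reads and the core to cap ratio varied more among NAC libraries than among saline libraries. NAC 2 stood furthest out in both, and in NAC 1, 3 and 4 the ratio of CPM sums ran only from 1.25 to 1.40. The share of the constitutive beta subunits varied about equally, with an SD of 1.43 percentage points in NAC and 1.40 in saline. Alpha subunits took 23.4%, 37.4%, 27.6% and 23.7% of the member reads in NAC 1 to 4, and 21.0% to 23.6% in saline. The core over the cap, as a ratio of CPM sums, was 1.40, 2.28, 1.32 and 1.25 in NAC and 1.11 to 1.31 in saline, so NAC 4 lay inside the saline range and the other 3 above it. On the TPM scale that ratio was 2.37, 3.86, 2.14 and 2.30 in NAC and 2.02 to 2.31 in saline, so NAC 3 and NAC 4 lay inside the range. All 50 members summed to 8214, 14708, 9150 and 8300 CPM in NAC and 9933 to 12008 in saline: NAC 2 lay above the saline range and the other 3 below it. The summed share of each library's reads was 0.884%, 1.42%, 0.982% and 0.932% in NAC and 0.884% to 1.19% in saline.

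**Figure D4:**
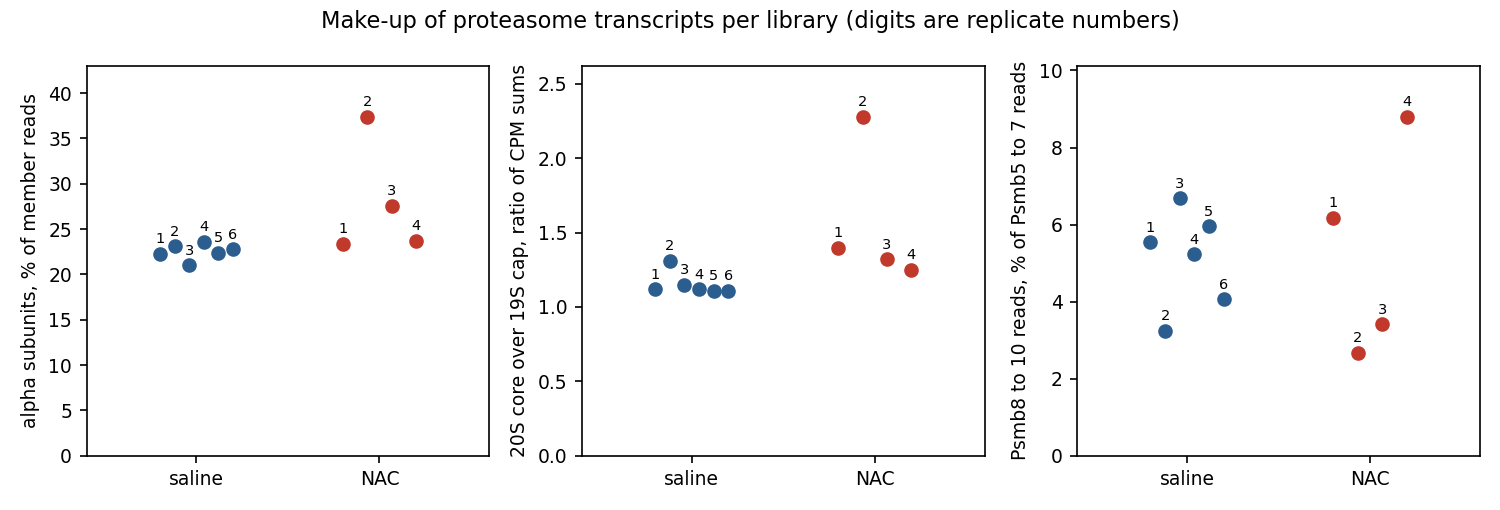
Per library (digits are replicate numbers), from left to right: alpha subunits as a percent of member reads, the ratio of core to cap CPM sums, and Psmb8 to Psmb10 reads as a percent of Psmb5 to Psmb7 reads (vertical axes from 0). NAC 2 stands at 37.4% and 2.28 in the first panels, and the groups overlap in the last.

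NAC 2 differed from the other NAC libraries by role. Set against the mean of NAC 1, 3 and 4, the CPM of NAC 2 had a median ratio of 2.54 over the 8 alpha genes (6 over 2), 1.77 over the 7 constitutive beta genes, 0.968 over the 6 ATPases and 1.23 over the 14 non-ATPase cap genes. Over the 10941 genes with reads in NAC 1, 3 or 4, the median ratio was 0.785, where genes without reads in NAC 2 entered at 0. The ratio ran from 0 (Psmf1 and Psmb8) and 0.0645 (Psmd3) to 3.94 (Psma1). In NAC 2, 19 of the 48 tested members exceeded the highest saline library and 14 lay under the lowest, while in NAC 1, 3 and 4 there were 0, 6 and 4 above and 30, 25 and 25 below. Of all tested genes, 29.9% lay above and 40.3% below the saline range in NAC 2, while in NAC 1, 3 and 4 the shares were 22.8%, 22.8% and 19.5% above and 20.3%, 36.8% and 20.6% below. The GC content of transcripts moved with the NAC 2 values: across the 48 members, Spearman's rho with NAC 2 against the other NAC libraries was -0.40 (-0.43 over 10851 genes). For GC content with the log2 fold of NAC over saline, rho was -0.39 (-0.44 over 10851 genes), and -0.13 without NAC 2 (-0.23 over all genes). The alpha genes had a median GC content of 44.5%, the constitutive beta genes 51.0%, the ATPases 50.7% and the non-ATPase cap genes 48.8%. With offsets for GC content and length the median of all members was -0.24, with 32 of 48 negative, and that of the alpha genes -0.17.

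**Figure D5:**
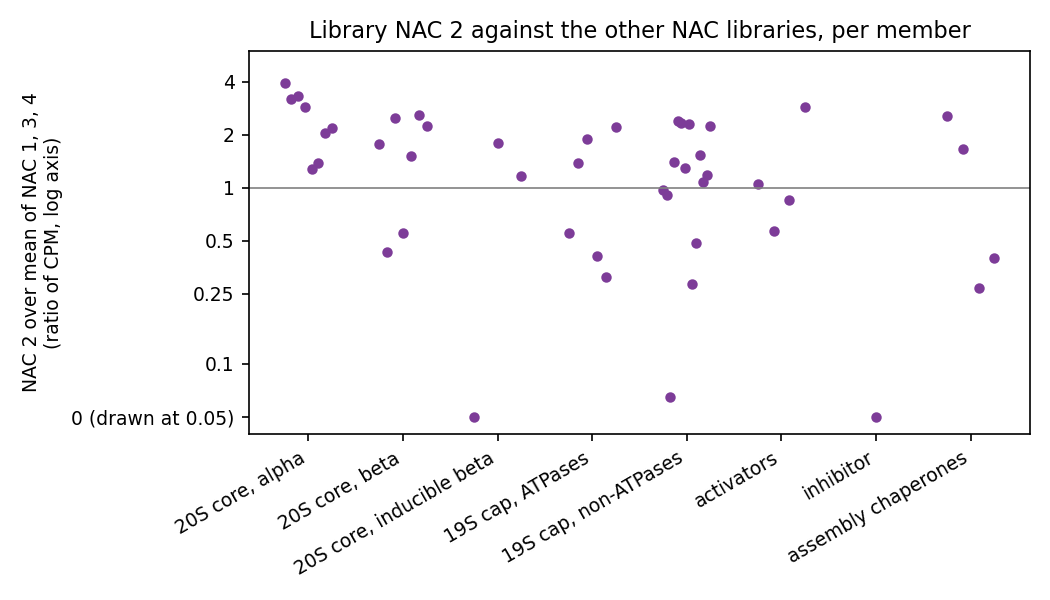
CPM in NAC 2 over the mean of NAC 1, 3 and 4 (vertical log axis) for each tested member except Psmc3ip, by role; values of 0 are drawn at 0.05. The alpha genes lie above 1, up to 3.94, and the ATPases spread from 0.312 to 2.20.

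Other genes of the pathway were described from a list of ubiquitin genes, shuttle factors, proteasome-bound proteins and regulators, of which 33 were tested. None passed edgeR's test (all genes 0.0731%). At an unadjusted p under 0.05, 8 had lower values in NAC (all genes 8.34%) and 3 had higher values (all genes 7.82%), and 20 had negative log2 folds (all genes 49.0%) with a median of -0.22. Without saline 5 there were 6 at that unadjusted p and without NAC 2 there were 7, all lower in NAC (all genes 9.30% without NAC 2). There were 3, all lower, with the oocyte covariate, and 5, of which 4 were lower, among the 23 genes tested after thinning. The shares of all genes without saline 5, with that covariate and after thinning are not given here. Those counts are therefore not read against genes at large. DESeq2 called 0, and limma-voom called 4 (all genes 4.35%), among them Nfe2l2 and Ubb (adjusted p = 0.0403 and 0.0292). Nfe2l2, which encodes NRF2, had 89.5, 125, 64.4 and 62.8 CPM in NAC and 96.2, 172 and 281 in saline. Only NAC 2 lay inside the saline range (log2 fold -0.99 ± 0.34 SE; adjusted p = 0.184 by edgeR; -1.23 without NAC 2). Nfe2l1, the other factor, stood at -0.30 (SE 0.27), with groups that overlapped.

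Ubb, which encodes ubiquitin, had 3849, 676, 1571 and 4170 CPM in NAC and 3532, 5765 and 6428 in saline (log2 fold -1.04 ± 0.42 SE; -0.74 without NAC 2). NAC 1 and NAC 4 lay inside the saline range for this gene, and NAC 2 and NAC 3 below it. Usp5, a deubiquitinase of free chains, had 81.5, 12.3, 24.2 and 90.8 CPM in NAC and 84.5, 135 and 148 in saline (log2 fold -1.13 ± 0.42 SE; -0.78 without NAC 2). Adrm1, a ubiquitin receptor of the cap, had 171, 49.1, 217 and 209 CPM in NAC and 206, 294 and 381 in saline (log2 fold -0.87 ± 0.36 SE; -0.58 without NAC 2).

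Members were compared by how alike they ran over the 10 libraries, as a description of libraries that share depth and composition. Over the 40 members with a mean of at least 50 CPM, the 780 pairs had a median Spearman's rho of 0.32. The pairs most alike were Psmc4 with Psmd9, the cap assembly chaperone (rho 0.98), and Psmd2 with Psmd13, 2 cap subunits (rho 0.94). Likeness was not confined to the cap. Close behind came Psmc3 with Psmd6, Psma1 with Psma7 and Psmd8 with Psmg1 (rho 0.93 each), and Psmb6 with Psmc3 (rho 0.92).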

How the data were processed

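Per the submitters' processing notes, the authors ran Salmon on GRCm38; no version is given. The deposited tables hold, per the file headers, estimated counts per gene (fractional where Salmon split reads), TPM and transcript lengths. Rows without a gene symbol (1548, 0.496% to 0.638% of reads) were left out. Counts were rounded and tested with edgeR 4.0.16 (R 4.3.3; TMM factors, default low-count filter, robust quasi-likelihood fit, Benjamini-Hochberg adjustment over 10945 genes); calls are at 0.05 after adjustment. Log2 folds are NAC over saline. Alternatives were DESeq2 1.42.0, limma 3.58.1 (voom with sample quality weights, and log2 TPM with a pseudocount of 1 or 0.1), other scalings and filters, thinning, covariates, offsets, each library left out and a replicate block. Near-identical transcripts (at least 95% over 200 bases) were found by alignment. Per-library values are CPM with TMM factors; the reads were amplified and carry no molecular identifiers, so the limits for a count of 0 (3 reads) cover counting error only.

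Members and lists were chosen with earlier results of these data known. Named members are up to 4 per role with the smallest unadjusted p, with Psmb5 to Psmb10 and Psmc3ip, and the 6 pathway genes with the smallest p, of which 2 are not reported here; Nfe2l1, Psmd3, Psmd4, Psmd5, Psmd10 and Psmd14 were named after their values were seen. Of 34 pathway genes 33 were in the tables; the remaining one is not analysed here. edgeR's test was also run on simulated counts in which 200 genes were changed.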

Additional observations from a re-analysis of the deposited data

Results flagged for a closer look

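In 74 groups of per-library values, 6 had a library whose gap to the nearest other exceeded Dixon's critical value; chance marks about 1 in 20 groups. NAC 2 stood above the other NAC libraries for Psma1 (827 CPM), Psmb3 (885 CPM) and Psme4 (211 CPM). Saline 4 stood below the other saline libraries for Psmc5 (232 CPM). Saline 2 stood above the others for Psme2 (320 CPM) and Psmg2 (119 CPM). No cause was tested.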

How the results depend on the processing

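Calls rest on few and uneven NAC libraries, of which NAC 2 and NAC 3 are the shallowest. In simulated counts over all tested genes, most changes of 1 on the log2 scale (3% recovered) and of 2 (33% recovered) were missed. No member or pathway gene passed edgeR's test under any edgeR alternative. Members called were 1 by DESeq2 and 3 by limma-voom with sample quality weights, which also called 4 pathway genes. The 12 members at an unadjusted p under 0.05 (all genes 1769 of 10945) became 5 of 48 on log2(TPM + 1) (all genes 1682 of 10945). Of these 5, 4 were lower in NAC, where 899 of all genes were. The members at that p were 4 on log2(TPM + 0.1), 7 when thinned to the shallowest library and 7 with an oocyte score as covariate. Counts in those settings are not set beside all genes here, so nothing is read from them. With the replicate block there were 5 members and 3 pathway genes, with 0 called and a member median of -0.23; replicate numbers do not pair the samples here (correlations of deviations -0.008, 0.01, 0.009 and 0.196, and only NAC 4 was most like its own number), so nothing is read from that. Members without overlap in either direction, 3 in all libraries, were 1 with library size alone, 0 on log2(TPM + 1), 1 when thinned (lower; all genes lower 1.01%), 19 without NAC 2 and NAC 3 (all lower; all genes lower 9.43%), and 3 to 10 with each library left out (all genes lower 3.64% to 7.46%). The median member log2 fold was -0.41 to -0.19 with each library left out, -0.45 without NAC 2 and NAC 3 and 0.01 when thinned, where 37 members and 2964 genes were tested. The causes were not tested.

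Among 37 named genes and 25 alternatives, 65 of 915 values had the other sign, in 16 genes, and 21 genes had none. With sample quality weights in limma-voom the log2 fold was -0.23 for Psma1, -0.29 for Psmb6, -0.10 for Psmb7, 0.10 for Psmb10, 0.35 for Psmb8 and 0.05 for Psmg4. Without NAC 2 and NAC 3 it was -0.44 for Psma1, -0.13 for Psma4, -0.17 for Psmb3, -0.41 for Psmb6, -0.41 for Psmb7, 0.66 for Psmb8, 0.07 for Psmb10, -0.04 for Psmc6, -0.22 for Psmg2 and 0.23 for Psmg4. With GC and length offsets it was -0.17 for Psma1, 0.17 for Psmb5, -0.26 for Psmb7, 0.28 for Psmb8, 0.38 for Psmb9, 0.50 for Psmb10, -0.15 for Psmc6, 0.50 for Psme1 and -0.05 for Psmg2. With the oocyte covariate it was 0.44 for Psmb8, 0.08 for Psmb10, 0.02 for Psmc3ip and -0.08 for Psme3. With the replicate block it was -0.06 for Psmb6 and 0.77 for Psmb8. When thinned it was 0.19 for Psma6 and 0.01 for Psme1. On log2(TPM + 1) and log2(TPM + 0.1) it was 0.14 and 0.15 for Psmb9, 0.06 and 0.06 for Psmc3ip, and 0.00 and 0.00 for Psme1. With library size alone it was 0.28 for Psmb8, 0.13 for Psmb10 and 0.00 for Psmc3ip. For Psmb8 it was 0.02 with RLE factors and 0.04 with the 10 CPM filter, and for Psmb10 0.01 by DESeq2. With each library left out in turn, the log2 fold ran from -0.38 to 0.56 for Psma1 (the other sign without NAC 2) and from -0.21 to 0.08 for Psmb10 (the other sign without NAC 3, saline 1 or saline 3). It ran from -0.17 to 0.35 for Psmb3 (the other sign without NAC 2) and from -0.41 to 0.17 for Psmb6 (the other sign without NAC 2 or saline 4). It ran from -0.19 to 0.33 for Psmb7 (the other sign without NAC 2) and from -1.08 to 0.37 for Psmb8 (the other sign without NAC 2, NAC 3, saline 3, saline 4, saline 5 or saline 6). It ran from -0.11 to 0.10 for Psme3 (the other sign without NAC 3, NAC 4, saline 3 or saline 6) and from -0.11 to 0.24 for Psmg2 (the other sign without NAC 2). It ran from -0.67 to 0.01 for Psmg4 (the other sign without NAC 2).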
